A study of Mus musculus with 11 samples.

Results

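The genes for the CD3 and CD8 chains and for the first steps of T cell receptor (TCR) signalling were read in sorted mouse CD8 T cells. They are 10 of the 52636 genes in the count table, taken by gene symbol: Cd3d, Cd3e, Cd3g, Cd247, Cd8a, Cd8b1, Zap70, Lat, Lcp2 and Plcg1. All 10 passed the filter on low counts, and the smallest count of any of them in any library was 2878. The CD45RBhi group (4 libraries) and the CD45RBlo group (4 libraries) were memory CD8 T cells from the spleens of C57BL/6 mice given 200000 pfu of LCMV Armstrong, an acutely infecting virus strain, into the peritoneum. They were sorted on days 42 to 45 (week 6) by tetramer and split by CD45RB, a splice form of the phosphatase CD45. The tetramer, per the labels, was Kb carrying NP396, a peptide of the viral nucleoprotein. The MHC molecule is given as the labels write it and was not checked. The naive group (3 libraries) was CD44lo CD8 T cells from spleens of the same strain. Its labels repeat the infection text and carry a time entry of 6 to 8 weeks whose meaning is not stated. Whether replicates are separate animals is not stated in the labels, and the tests below therefore weigh differences against the spread of libraries, which may be technical.

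The TCR alpha and beta chains recognise peptide on MHC but have almost no cytoplasmic tail, and the CD3 gamma, delta, epsilon and zeta chains carry the signal through tyrosine motifs called ITAMs. The CD8 co-receptor binds MHC class I and brings the kinase LCK to the receptor, where LCK phosphorylates the ITAMs and activates ZAP-70. ZAP-70 then phosphorylates the scaffolds LAT and SLP-76, on which the phospholipase PLC-gamma 1 is activated to start calcium and diacylglycerol signalling.

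Promoter windows are shown for the members that passed the test in CD45RBhi cells and have an entry in the RefSeq table, so that the sequence around the start of each gene that moved can be read beside its values. The table covers 250 bases before to 50 bases after each start on GRCm38.p6, and 9 of the 10 members matched, all but Cd8b1. The windows are chr9:44981536-44981835 on the plus strand for Cd3d, chr9:45009562-45009861 on the minus strand for Cd3e and chr6:71373177-71373476 on the plus strand for Cd8a. Those of Lcp2 and Plcg1 are chr11:34046678-34046977 and chr2:160731060-160731359, both on the plus strand. Capitals mark matches on either strand to short core motifs of transcription factor families that bind T cell genes. RUNX factors were searched as TGTGGT. The TCF/LEF factors, which include TCF1, were searched as CTTTGA. For the GATA family the letters were AGATAA. For the ETS family, large in lymphocytes, they were AGGAAG. For the SP and KLF factors, which bind GC-rich promoters, they were GGGCGG.
Cd3d: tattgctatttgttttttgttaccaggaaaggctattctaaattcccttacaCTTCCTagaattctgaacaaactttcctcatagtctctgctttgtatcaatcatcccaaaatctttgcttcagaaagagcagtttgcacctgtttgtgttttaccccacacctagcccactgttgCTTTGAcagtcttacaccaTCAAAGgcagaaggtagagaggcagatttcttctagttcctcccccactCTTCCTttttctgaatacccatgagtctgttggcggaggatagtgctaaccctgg
Cd3e: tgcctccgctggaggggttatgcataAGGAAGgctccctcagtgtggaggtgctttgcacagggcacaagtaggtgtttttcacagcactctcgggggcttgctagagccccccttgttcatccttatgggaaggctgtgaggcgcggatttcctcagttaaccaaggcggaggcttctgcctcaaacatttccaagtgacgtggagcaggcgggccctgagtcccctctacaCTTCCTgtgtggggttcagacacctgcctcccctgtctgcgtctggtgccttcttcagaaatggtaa
Cd8a: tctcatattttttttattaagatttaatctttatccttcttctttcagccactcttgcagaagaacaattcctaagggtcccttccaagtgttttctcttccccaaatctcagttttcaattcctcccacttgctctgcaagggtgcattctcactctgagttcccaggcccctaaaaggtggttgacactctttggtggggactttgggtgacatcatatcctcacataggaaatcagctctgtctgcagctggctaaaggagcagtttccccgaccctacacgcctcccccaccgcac
Lcp2: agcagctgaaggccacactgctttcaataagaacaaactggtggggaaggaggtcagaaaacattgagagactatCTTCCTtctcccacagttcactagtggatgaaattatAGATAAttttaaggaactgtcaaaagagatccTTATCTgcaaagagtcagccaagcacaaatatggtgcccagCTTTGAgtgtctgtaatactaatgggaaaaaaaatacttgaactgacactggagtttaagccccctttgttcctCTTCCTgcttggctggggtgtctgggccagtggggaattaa
Plcg1: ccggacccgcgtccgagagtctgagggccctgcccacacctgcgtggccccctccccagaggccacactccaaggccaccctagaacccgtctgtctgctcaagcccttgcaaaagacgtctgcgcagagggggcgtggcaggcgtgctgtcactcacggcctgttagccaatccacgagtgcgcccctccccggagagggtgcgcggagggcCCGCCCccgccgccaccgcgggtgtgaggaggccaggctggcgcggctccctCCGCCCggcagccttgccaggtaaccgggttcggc

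The Cd3d window held 2 TCF/LEF and 2 ETS matches, and the Cd3e window held 2 ETS matches. The Lcp2 window held 1 TCF/LEF, 2 GATA and 2 ETS matches, the Plcg1 window held 2 SP/KLF matches, and the Cd8a window held none of the 5 letter strings. No matches overlapped each other. Of 32851 promoter windows in the table, 16.8% held the RUNX letters, 16.0% the TCF/LEF letters, 11.2% the GATA letters, 35.4% the ETS letters and 35.7% the SP/KLF letters. A match of this kind is a description of the letters and not a binding site.

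Levels are given as CPM, the counts of a gene per 1 M counts of its library after TMM scaling, with their SD over libraries. Total counts ran from 18 to 23.2 M per library. Cd4, the co-receptor of the other main T cell lineage, had 0 to 9 counts in any library. The 9 B cell markers summed to 205 to 500 CPM in CD45RBhi, 196 to 442 CPM in CD45RBlo and 1183 to 1345 CPM in naive libraries, mostly Ighm, and Pax5 was at 0 in all memory libraries. Cd22 went the other way (119 to 245 counts in CD45RBhi, 200 to 327 in CD45RBlo, 20 to 62 in naive libraries). The 8 erythroid and platelet markers summed to 0.304 to 1.62 CPM in CD45RBhi, 0.242 to 25 CPM in CD45RBlo and 238 to 524 CPM in naive libraries, with Ppbp at 0 in all memory libraries. The 10 myeloid markers summed to 3.17 to 11 CPM in CD45RBhi, 7.74 to 16.6 CPM in CD45RBlo and 30.3 to 55.5 CPM in naive libraries, with S100a9 at 0 everywhere. Itgam of this list was higher in memory (55 to 163 counts in CD45RBhi, 80 to 206 in CD45RBlo, 9 to 18 in naive libraries). The 7 NK cell markers summed to 123 to 253 CPM in CD45RBhi, 134 to 237 CPM in CD45RBlo and 4.87 to 7.22 CPM in naive libraries, in memory libraries nearly all from Klrb1c, while Ncr1 had at most 2 counts. The 6 gamma delta T cell markers summed to 30.9 to 65.7 CPM in CD45RBhi, 42.2 to 71.7 CPM in CD45RBlo and 9 to 9.99 CPM in naive libraries, led by Tcrg-C2, while Trdc had 6 to 29 counts in CD45RBhi, 6 to 16 in CD45RBlo and 114 to 145 in naive libraries. The dendritic cell markers, led by Itgax and with Siglech at 0 in memory libraries, summed to 87.2 to 248 CPM in CD45RBhi, 67.3 to 169 CPM in CD45RBlo and 3.47 to 5.07 CPM in naive libraries. The CD4 T cell markers, led by Zbtb7b, summed to 7.55 to 12.8 CPM in CD45RBhi, 9.69 to 14.7 CPM in CD45RBlo and 3.33 to 4.53 CPM in naive libraries. Foxp3 of that list was lower in memory, with 0 counts in CD45RBhi, 0 to 1 in CD45RBlo and 16 to 30 in naive libraries. Cd40lg did not pass in either memory group. Replicate 2 of both memory groups had the lowest mitochondrial share of counts, 0.320% in CD45RBhi and 0.301% in CD45RBlo. The other memory libraries had 0.515% to 0.957%, and naive ones 0.716% to 0.916%. The marker sums differed between memory and naive libraries, while the naive mitochondrial shares lay within the memory range. The part of these markers and shares in the results was not tested. In sorted bulk samples, fewer cells of a type and less RNA per cell cannot be told apart.

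Per kilobase of exon, Cd8b1 was the most abundant member in every group, at 1917 ± 95.9 CPM per kb in CD45RBhi, 1727 ± 88.5 in CD45RBlo and 1599.7 ± 67.9 in naive libraries. Plcg1 was the least abundant, at 23.9 ± 5.95 CPM per kb in CD45RBhi, 30.3 ± 5.80 in CD45RBlo and 39.6 ± 6.21 in naive libraries. In naive libraries Cd8a (364 ± 24.5) stood next to the top, followed by Cd3d (330.1 ± 12.6), Cd3e (249 ± 6.21), Cd3g (238 ± 12.6), Lat (168 ± 18.1), Zap70 (89.2 ± 4.05), Lcp2 (86.7 ± 1.04) and Cd247 (71.8 ± 3.82 CPM per kb). Cd3e and Cd3g, and Zap70 and Lcp2, lay within 1 SD of each other there. In CD45RBhi libraries the order below Cd8b1 was Cd3d (385 ± 22.0), Cd3e (291 ± 26.4), Cd8a (271 ± 15.6), Cd3g (236 ± 20.8), Lat (161 ± 23.1), Lcp2 (125 ± 10.2), Zap70 (103 ± 9.06) and Cd247 (74.7 ± 4.72 CPM per kb). Cd8a thus stood behind Cd3d and Cd3e in CD45RBhi cells, and Cd3e and Cd8a lay within 1 SD of each other. In CD45RBlo libraries the order was the same as in CD45RBhi ones, with Cd3d at 338 ± 21.4, Cd3e at 287 ± 15.9, Cd8a at 269.6 ± 19.4, Lcp2 at 120.0 ± 8.52 and Zap70 at 105 ± 7.76 CPM per kb. Lengths came from GENCODE M21 on GRCm38, which need not be the annotation the reads were counted on. The rank of Cd247 is uncertain, since 3007 of the 5329 exon bases it was divided by are shared with Pou2f1. Before division by length, Cd247 averaged 383 CPM in naive libraries, against 267 for Zap70 and 387 for Lcp2.

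**Figure D1:**
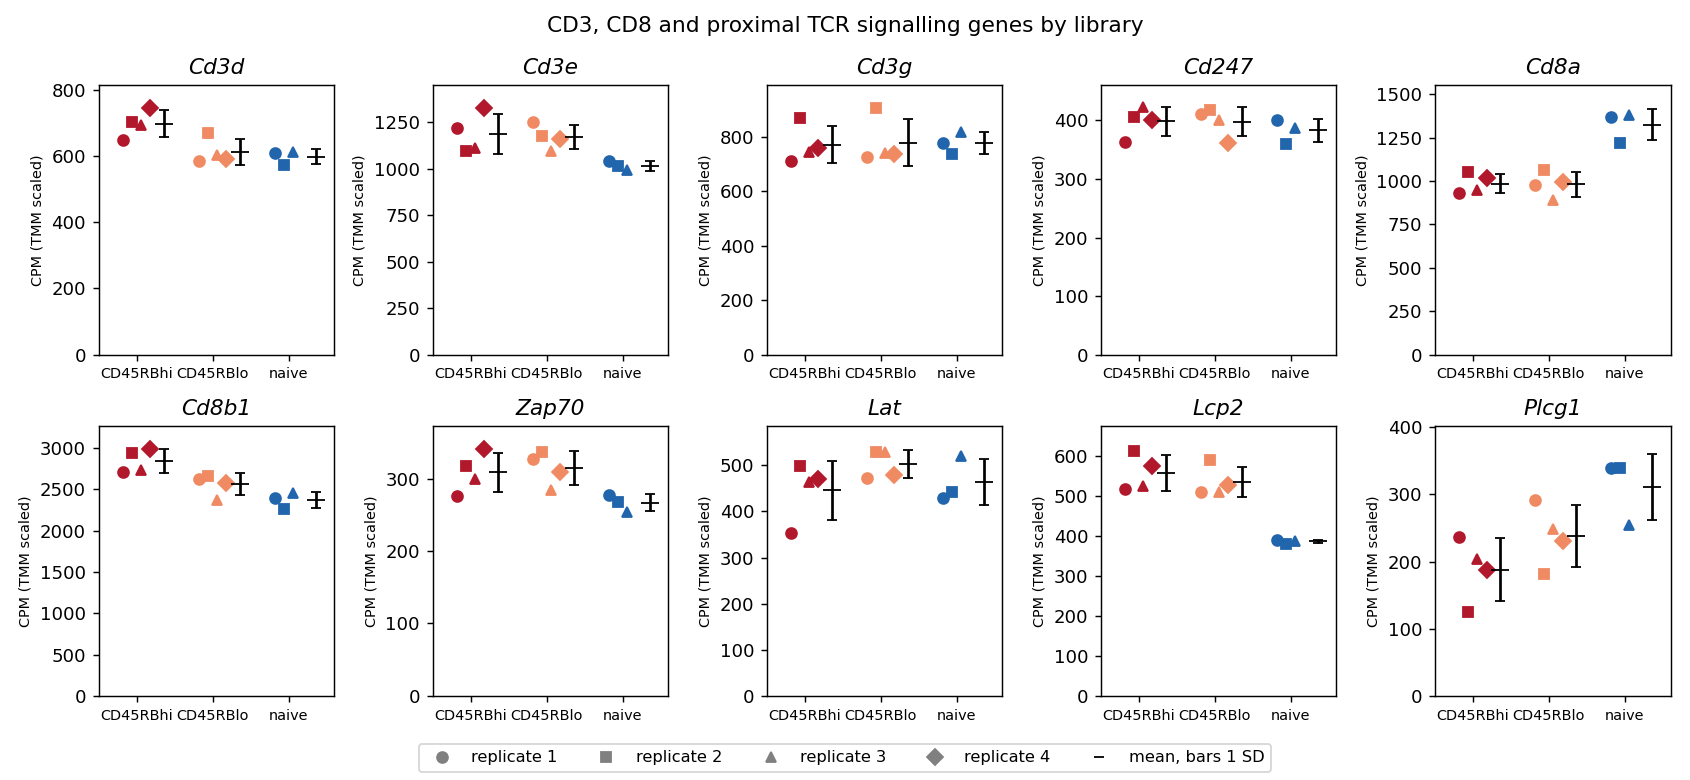
CPM (TMM scaled, y axes from 0) of the 10 genes in each library of the CD45RBhi, CD45RBlo and naive groups, with the replicate number as the marker shape and the mean with bars of 1 SD to the right of each group. Cd8a lies lower and Lcp2 higher in all 8 memory libraries than in the 3 naive ones, and Plcg1 is lowest in CD45RBhi libraries, down to 125 CPM.

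Against naive cells, CD45RBhi memory cells differed in 6 of the 10 genes: Cd3d, Cd3e, Cd8b1 and Lcp2 rose, and Cd8a and Plcg1 fell. Of all 13735 genes tested, 41.5% were called in this comparison, 22.3% higher and 19.1% lower, and 6 of 10 is read against that share. CD45RBlo memory cells differed from naive cells in 3 of the 10, with Zap70 and Lcp2 higher and Cd8a lower, against a background of 42.2% (22.4% higher and 19.8% lower). Values did not overlap between CD45RBhi and naive libraries for 6 genes, where the background was 47.4%, nor between CD45RBlo and naive libraries for 4, where it was 49.6%. The median log2 fold change of the 10 genes was 0.13 in CD45RBhi and 0.08 in CD45RBlo cells, and that of all genes tested was -0.01 in both. Both comparisons share the naive libraries. Apart from Plcg1 in CD45RBhi cells, all 10 genes differed from naive cells by less than 1.5-fold, and the largest differences were those of Plcg1, Lcp2 and Cd8a.

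The CD3 and zeta chains were measured first. Cd3d (delta chain, chr9:44981786-44987339, plus strand) had 649, 703, 695 and 747 CPM in CD45RBhi libraries 1 to 4, 587, 670.4, 602 and 592 CPM in CD45RBlo libraries 1 to 4, and 611, 573 and 614 CPM in naive libraries 1 to 3. All 4 CD45RBhi values lay above all naive values, while the CD45RBlo values overlapped both other groups. Cd3d rose by 0.22 ± 0.07 log2 units (SE) in CD45RBhi against naive cells (adjusted p = 0.0291, edgeR quasi-likelihood test). Its difference in CD45RBlo cells was 0.03 ± 0.07 (adjusted p = 0.758).

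Cd3e (epsilon chain, chr9:44998740-45009627, minus strand) had 1221, 1097, 1111 and 1328 CPM in CD45RBhi libraries, 1251, 1175, 1094 and 1161 CPM in CD45RBlo libraries, and 1043, 1014 and 992 CPM in naive libraries. Every memory value was above every naive value. Cd3e rose by 0.23 ± 0.08 in CD45RBhi cells (adjusted p = 0.0359), and its difference in CD45RBlo cells was 0.20 ± 0.08 (adjusted p = 0.0550). The calls of Cd3d and Cd3e in CD45RBhi cells were lost when libraries were scaled by total counts only (0.07 and 0.08, adjusted p = 0.474 and 0.400), without a filter on low counts (adjusted p = 0.0645 and 0.0602) and without any single naive library (adjusted p of 0.0557 to 0.116 for Cd3d and 0.0627 to 0.110 for Cd3e). Both were also lost without CD45RBhi replicate 4 (0.19 and 0.17, adjusted p = 0.0832 and 0.108), Cd3d without CD45RBhi replicate 3 (adjusted p = 0.0564), and Cd3e without CD45RBhi replicate 1 (adjusted p = 0.0671) and when only CD45RBhi and naive libraries were fitted (adjusted p = 0.0601).

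Cd3g (gamma chain, chr9:44969572-44980431, minus strand) had 711, 868, 744 and 758 CPM in CD45RBhi, 724, 906, 742 and 737 CPM in CD45RBlo, and 776, 736 and 819 CPM in naive libraries. The 3 groups overlapped, and replicate 2 was the highest in both memory groups. Its log2 fold change was -0.01 ± 0.10 in CD45RBhi and 0.00 ± 0.10 in CD45RBlo against naive cells (adjusted p = 0.929 and 0.998). Cd247 (zeta chain, chr1:165788681-165877277, plus strand) had 363, 406, 422 and 402 CPM in CD45RBhi, 410.4, 418, 401 and 362 CPM in CD45RBlo, and 400.2, 360.5 and 388 CPM in naive libraries. These also overlapped, with differences of 0.06 ± 0.08 in both memory groups (adjusted p = 0.599 and 0.607). Of its 5329 exon bases, 3007 are shared with Pou2f1 on the opposite strand, and since the strandedness of the counting is not given, the level of Cd247 is uncertain.

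Cd3g and Cd3d lie back to back, 1354 bases apart and divergently transcribed, so their ratio within a library compares neighbours without any scaling between libraries. The Cd3g over Cd3d count ratio was 1.095, 1.234, 1.070 and 1.016 in CD45RBhi, 1.234, 1.352, 1.231 and 1.245 in CD45RBlo, and 1.271, 1.286 and 1.333 in naive libraries. The CD45RBhi ratios lay below all naive ratios, and within each replicate number the CD45RBhi ratio was below the CD45RBlo ratio. The mean log2 ratio differed by -0.24 between CD45RBhi and naive libraries (exact permutation test, two-sided, p = 0.0571, and 0.171 after Benjamini-Hochberg adjustment over all ratio tests) and by -0.20 between CD45RBhi and CD45RBlo libraries (p = 0.0857 by the exact test, adjusted 0.214). The ratio of CD45RBlo to naive libraries differed by -0.04 (exact p = 0.400, adjusted 0.429), and the Cd247 over Cd3e ratio overlapped between all groups, at 0.297 to 0.380 in CD45RBhi, 0.312 to 0.367 in CD45RBlo and 0.355 to 0.391 in naive libraries.

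The CD8 chains differed in direction in CD45RBhi cells, where Cd8a fell and Cd8b1 rose. In CD45RBlo cells only Cd8a passed, and the uncalled difference of Cd8b1 had the same sign as in CD45RBhi cells. Neither chain was called between the memory groups. Cd8a (alpha chain, chr6:71373427-71379173, plus strand) had 929.7, 1049, 947 and 1017 CPM in CD45RBhi libraries, 976, 1063, 891 and 992 CPM in CD45RBlo libraries, and 1371, 1221 and 1379 CPM in naive libraries. All 8 memory values lay below all 3 naive values, and the memory groups overlapped. In CD45RBhi cells Cd8a fell, with a log2 fold change of -0.43 ± 0.08 (adjusted p = 0.000820), and in CD45RBlo cells it was -0.43 ± 0.08 (adjusted p = 0.000681). Both calls held under every alternative run.

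Cd8b1 (beta chain, chr6:71322788-71337494, plus strand) had 2707, 2943, 2736 and 2986 CPM in CD45RBhi libraries, 2631, 2663, 2371 and 2577 CPM in CD45RBlo libraries, and 2399.9, 2261 and 2456 CPM in naive libraries. CD45RBhi values lay above all others, and CD45RBlo and naive values overlapped. Cd8b1 rose by 0.26 ± 0.07 in CD45RBhi against naive cells (adjusted p = 0.00704), a call lost under scaling by total counts only (0.11, adjusted p = 0.195). The difference in CD45RBlo cells was 0.11 ± 0.07 (adjusted p = 0.207).

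The Cd8b1 over Cd8a count ratio was 2.912, 2.805, 2.890 and 2.937 in CD45RBhi, 2.697, 2.506, 2.661 and 2.598 in CD45RBlo, and 1.750, 1.852 and 1.782 in naive libraries. The 3 groups did not overlap. On the log2 scale the ratio was higher by 0.69 in CD45RBhi than in naive, by 0.54 in CD45RBlo than in naive, and by 0.14 in CD45RBhi than in CD45RBlo libraries. Each of these had p = 0.0286 in the exact permutation test (two-sided), the smallest p these group sizes allow, and 0.107 after Benjamini-Hochberg adjustment over 5 ratios in 3 comparisons. An adjusted p under 0.05 would have needed most of the ratio tests at that smallest p, so the adjusted value cannot decide. The permutation did not use the replicate numbers. The CD45RBhi ratio was higher in 4 of 4 replicate numbers, by 0.11, 0.16, 0.12 and 0.18 log2 units. Cd8a and Cd8b1 are separated by 35932 bases.

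**Figure D2:**
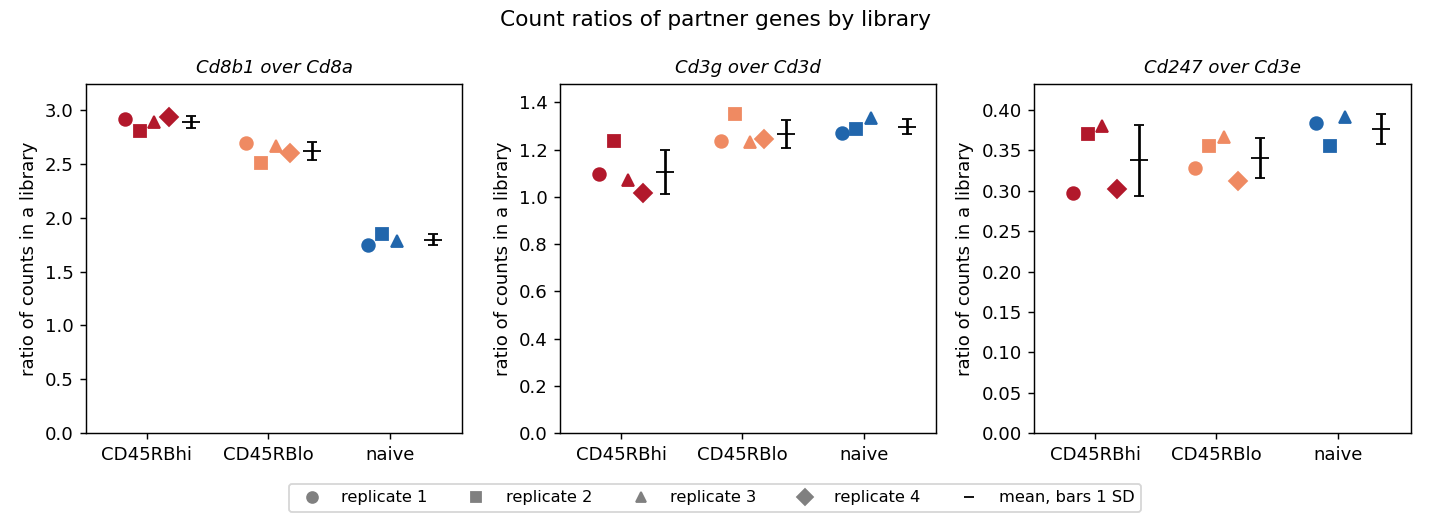
Ratio of the counts of partner genes within each library (y axes from 0), for Cd8b1 over Cd8a, Cd3g over Cd3d and Cd247 over Cd3e, with replicate numbers as marker shapes and means with bars of 1 SD. The Cd8b1 over Cd8a ratio falls into 3 groups that do not overlap, 2.805 to 2.937 in CD45RBhi, 2.506 to 2.697 in CD45RBlo and 1.750 to 1.852 in naive libraries, while Cd247 over Cd3e overlaps throughout.

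Among the members that encode signalling proteins, the transcripts of the adaptor Lcp2 and the phospholipase Plcg1 changed most. Lcp2 (SLP-76, the scaffold that joins LAT to PLC-gamma 1, chr11:34046920-34092295, plus strand) had 517, 614, 525 and 576 CPM in CD45RBhi libraries, 511, 591, 511 and 528 CPM in CD45RBlo libraries, and 390.1, 381 and 389 CPM in naive libraries. Every memory library was above every naive library, and the memory groups overlapped. Lcp2 rose by 0.53 ± 0.08 in CD45RBhi cells (adjusted p = 0.000205) and by 0.47 ± 0.08 in CD45RBlo cells (adjusted p = 0.000491), and both calls held under every alternative run.

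Plcg1 (PLC-gamma 1, chr2:160731300-160775760, plus strand) had 236, 125, 203 and 187 CPM in CD45RBhi libraries, 292, 182, 248 and 230.4 CPM in CD45RBlo libraries, and 339, 339 and 255 CPM in naive libraries. All CD45RBhi values lay below all naive values, CD45RBlo values overlapped both other groups, and replicate 2 was the lowest in each memory group. Plcg1 fell by 0.73 ± 0.20 in CD45RBhi cells (adjusted p = 0.0102), and its difference in CD45RBlo cells was -0.39 ± 0.20 (adjusted p = 0.140). The CD45RBlo difference passed the test under scaling by total counts only (-0.52, adjusted p = 0.0373) and when only CD45RBlo and naive libraries were fitted (-0.40, adjusted p = 0.0492). Plcg1 shares 379 of its 7857 exon bases with Zhx3 and 248 with Gm27206, both on the opposite strand, and smaller overlaps exist for Cd3e (135 bases with Gm48719) and Lcp2 (282 bases with 4930469K13Rik).

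Zap70 (the kinase that docks on phosphorylated ITAMs, chr1:36761798-36782818, plus strand) had 277, 318, 299.9 and 341 CPM in CD45RBhi, 328, 337, 284 and 309 CPM in CD45RBlo, and 278, 268 and 254 CPM in naive libraries. CD45RBlo values lay above all naive values, and CD45RBhi replicate 1 lay within the naive range. Zap70 rose by 0.24 ± 0.09 in CD45RBlo cells (adjusted p = 0.0452), and its difference in CD45RBhi cells was 0.21 ± 0.09 (adjusted p = 0.0720), which passed without CD45RBhi replicate 1 (0.26, adjusted p = 0.0305). The CD45RBlo call was lost under 12 of the alternatives run, with adjusted p of 0.0504 to 0.370, among them DESeq2 (0.0509) and leaving out any naive library (0.0648 to 0.155) or CD45RBlo replicate 1, 2 or 4 (0.0930 to 0.0992).

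Lat (the membrane scaffold phosphorylated by ZAP-70, chr7:126363824-126369570, minus strand) had 353, 498, 463 and 469.9 CPM in CD45RBhi, 473, 528, 528 and 479.5 CPM in CD45RBlo, and 428, 442 and 521 CPM in naive libraries. The 3 groups overlapped. Its log2 fold change against naive cells was -0.06 ± 0.11 in CD45RBhi and 0.11 ± 0.11 in CD45RBlo cells (adjusted p = 0.726 and 0.453).

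**Figure D3:**
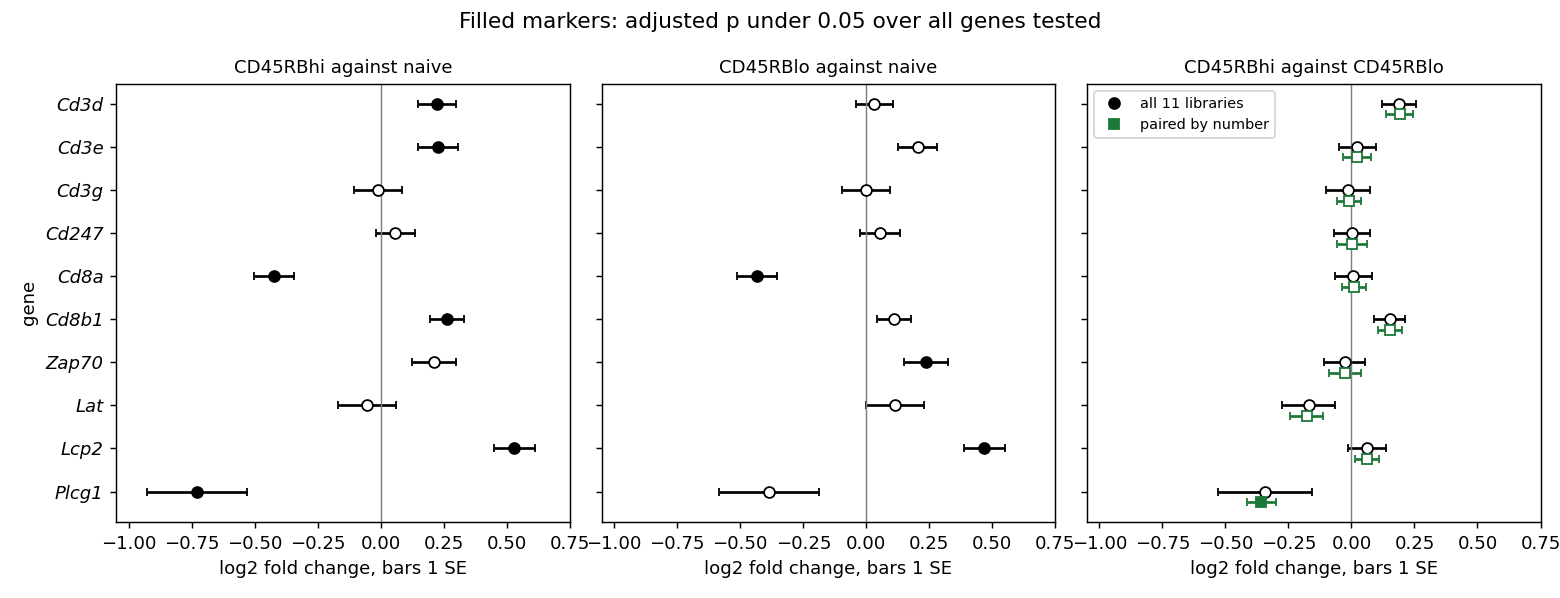
Log2 fold changes of the 10 genes in 3 comparisons, with bars of 1 SE and filled markers where the adjusted p is under 0.05. Green squares in the right panel are the fit of the 8 memory libraries paired by replicate number. Cd8a lies at -0.43 in both memory groups against naive, Lcp2 at 0.53 and 0.47, and Plcg1 is the only filled gene in the right panel, at -0.36 in the paired fit.

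Between the memory groups none of the 10 genes was called by edgeR's quasi-likelihood test on all 11 libraries, against a background of 0.124% of all genes (0.0801% higher and 0.0437% lower), and DESeq2 also called 0. At an unadjusted p under 0.05, 2 of the 10 passed (Cd3d and Cd8b1), against 9.0% of all genes. Same-numbered CD45RBhi and CD45RBlo libraries deviated together, and the fit of the 8 memory libraries paired by number called 1 of the 10 genes, Plcg1, against a background of 5.59% of 12637 genes.

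Plcg1 was lower in the CD45RBhi library of each pair, by -0.31, -0.54, -0.29 and -0.30 log2 units for replicate numbers 1 to 4. The paired fit gave -0.36 ± 0.06 (adjusted p = 0.00560), against -0.34 ± 0.19 (adjusted p = 0.620) in the fit of all libraries without pairing. When all 11 libraries were fitted with that block, Plcg1 did not pass (-0.35, adjusted p = 0.444). That fit also joined naive and memory libraries of the same number, which correlated at only -0.101 to 0.0565. The call on the 8 memory libraries held without any 1 pair, with log2 fold changes of -0.38 to -0.30 and adjusted p of 0.0101 to 0.0338. Without replicate number 2, whose libraries had the lowest mitochondrial shares, it was -0.30 (adjusted p = 0.0101).

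Cd3d was higher in CD45RBhi libraries in 4 of 4 pairs, by 0.15, 0.07, 0.21 and 0.34 log2 units. The paired fit gave 0.19 ± 0.05 (adjusted p = 0.0568), and it passed without replicate number 2 (0.23, adjusted p = 0.0364). Cd8b1 was higher in 4 of 4 pairs, by 0.04, 0.14, 0.21 and 0.21, and its CD45RBhi and CD45RBlo values did not overlap, as for 4.99% of all genes (paired fit 0.15 ± 0.05, adjusted p = 0.0752). Lcp2 was also higher in 4 of 4 pairs, by 0.02 to 0.13 (0.06 ± 0.05, adjusted p = 0.498), and Lat was lower in 4 of 4 pairs, by -0.42, -0.08, -0.19 and -0.03 (-0.18 ± 0.06, adjusted p = 0.131). None of these 4 passed the paired test. The share of all genes with the same direction in 4 of 4 pairs was not counted. Cd3e, Cd3g, Cd247, Cd8a and Zap70 were higher in 2 of 4 pairs, with paired log2 fold changes of -0.03 to 0.02 and SE of 0.05 to 0.07.

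**Figure D4:**
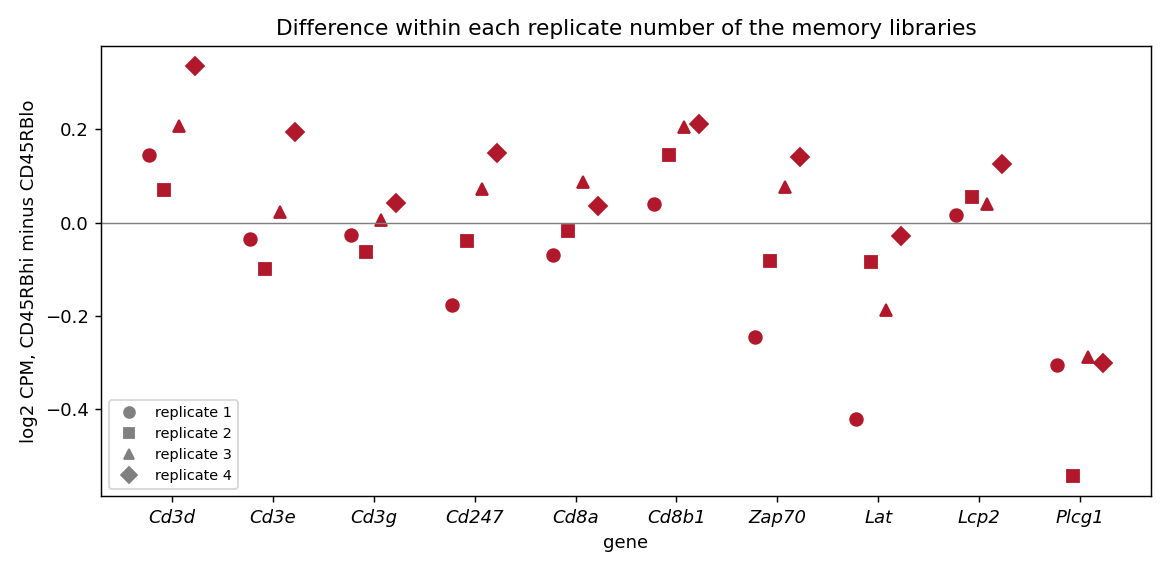
Difference in log2 CPM between the CD45RBhi and the CD45RBlo library of each replicate number, for the 10 genes. Plcg1 lies below 0 in all 4 pairs, from -0.54 to -0.29, Cd3d and Cd8b1 lie above 0 in all 4, and Cd3e, Cd3g, Cd247, Cd8a and Zap70 lie on both sides of 0.

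Around these 10 genes, 84 further genes of the pathway were read in 7 lists, and 83 were tested. In CD45RBhi against naive cells 28 were called higher and 19 lower, and in CD45RBlo against naive cells 29 higher and 20 lower. In total 47 of the 83 were called in CD45RBhi and 49 in CD45RBlo cells, where 41.5% and 42.2% of all genes tested were called. By direction, all genes were 22.3% higher and 19.1% lower in CD45RBhi, and 22.4% and 19.8% in CD45RBlo cells. These shares are the background for each list below. The lists were chosen with earlier results of these data known, and no set test was run. Scaling by total counts only moved the median log2 fold change of all genes to -0.16 in CD45RBhi and -0.14 in CD45RBlo cells. The split of these lists became 25 higher and 27 lower in CD45RBhi and 22 higher and 26 lower in CD45RBlo cells, and that of all genes 2301 higher and 3724 lower in CD45RBhi cells, against 3064 and 2630 with TMM.

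None of the 3 TCR constant regions passed, by an adjusted p. Trac averaged 1379 ± 266 CPM in CD45RBhi, 1327 ± 329 in CD45RBlo and 1202 ± 3.00 in naive libraries, and Trbc1 averaged 513 ± 135 CPM in CD45RBhi, 569 ± 151 in CD45RBlo and 471 ± 39.5 in naive libraries. Trbc2 averaged 1051 ± 151 CPM in CD45RBhi, 971 ± 172 in CD45RBlo and 986 ± 55.2 in naive libraries. Their log2 fold changes were 0.20, 0.12 and 0.09 in CD45RBhi and 0.14, 0.27 and -0.02 in CD45RBlo cells, with adjusted p of 0.351 to 0.922. Memory libraries spread more widely than naive ones for all 3.

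Kinases of the SRC and TEC families act just below the receptor. Fyn, an SRC kinase that acts beside LCK, had 1129.6, 1353, 1240.3 and 1212 CPM in CD45RBhi, 1225, 1362, 1273 and 1305 CPM in CD45RBlo, and 488, 503 and 476 CPM in naive libraries. It rose by 1.33 ± 0.07 in CD45RBhi and 1.40 ± 0.08 in CD45RBlo cells (adjusted p = 2.22e-08 and 1.28e-08). Lck, which was named after its values were seen, rose by 0.54 in CD45RBhi and 0.52 in CD45RBlo cells (adjusted p = 0.00494 and 0.00578), at 3064 ± 527 CPM in CD45RBhi, 3031 ± 422 in CD45RBlo and 2112 ± 88.5 in naive libraries. Txk and Tec, of the TEC family, whose members phosphorylate PLC-gamma 1, fell in both memory groups. The log2 fold changes were -0.56 in CD45RBhi and -0.59 in CD45RBlo cells for Txk, and -0.62 in CD45RBhi and -0.47 in CD45RBlo cells for Tec (adjusted p of 0.000817 to 0.00532).

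Among 15 other adaptors and scaffolds, 6 were higher and 3 lower in CD45RBhi cells (median 0.02), and 6 higher and 4 lower in CD45RBlo cells (median 0.09). Sh2d2a, the LCK-binding adaptor TSAd, averaged 483 ± 31.7 CPM in CD45RBhi, 474 ± 26.9 in CD45RBlo and 242 ± 6.18 in naive libraries and rose by 1.00 in CD45RBhi and 0.97 in CD45RBlo cells. Themis, a regulator of TCR signal strength in thymocytes, rose by 0.65 in CD45RBhi and 0.46 in CD45RBlo cells. Trat1, which encodes the transmembrane adaptor TRIM, averaged 1.70 ± 0.358 CPM in CD45RBhi, 1.76 ± 0.315 in CD45RBlo and 17.0 ± 2.40 in naive libraries and fell, with log2 fold changes of -3.32 in CD45RBhi and -3.27 in CD45RBlo cells. Grap2, the adaptor GADS that holds SLP-76 on LAT, fell (-0.67 in CD45RBhi and -0.68 in CD45RBlo cells), in the direction opposite to Lcp2.

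Of 19 genes downstream of PLC-gamma 1, 4 were higher and 3 lower in CD45RBhi cells (median 0.05), and 5 higher and 4 lower in CD45RBlo cells (median 0.11). The calcium-dependent genes Nfatc1 (a transcription factor freed by calcineurin), Ppp3ca (a catalytic subunit of calcineurin) and Stim2 (a calcium sensor of the endoplasmic reticulum) rose by 0.67, 0.54 and 0.55 in CD45RBhi and by 0.76, 0.65 and 0.57 in CD45RBlo cells. Orai2, a calcium channel subunit, fell (-0.50 in CD45RBhi and -0.32 in CD45RBlo cells, adjusted p = 7.85e-05 and 0.00232). Rasgrp1, the diacylglycerol-bound activator of RAS, fell (-0.62 in CD45RBhi and -0.70 in CD45RBlo cells, adjusted p = 0.00257 and 0.00106).

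The 20 brakes on proximal signalling held 8 higher and 4 lower genes in CD45RBhi cells (median 0.17), and 7 higher and 3 lower in CD45RBlo cells (median 0.23). The shares of all genes called were 41.5% in CD45RBhi and 42.2% in CD45RBlo cells. Dgka (-1.17 in both) and Ptpn6 (-0.30 in CD45RBhi and -0.28 in CD45RBlo cells) were called lower in both memory groups. These 2 were named after their values were seen. Dok2, an adaptor that recruits RasGAP, averaged 297 ± 38.7 CPM in CD45RBhi, 301 ± 29.2 in CD45RBlo and 92.0 ± 3.98 in naive libraries and rose by 1.69 in CD45RBhi and 1.71 in CD45RBlo cells. Ubash3b (STS-1, a phosphatase that acts on ZAP-70) rose by 1.63 and 1.69, Sla (SLAP, which lowers TCR levels) by 1.21 and 1.11, and Lax1 (a LAT-like adaptor) by 1.13 and 1.27 in CD45RBhi and CD45RBlo cells. Ptpn11 (the phosphatase SHP-2) averaged 92.5 ± 5.50 CPM in CD45RBhi, 117 ± 11.7 in CD45RBlo and 37.4 ± 2.85 in naive libraries and rose by 1.31 in CD45RBhi and 1.64 in CD45RBlo cells.

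Of the 8 relatives of ZAP-70, LAT, SLP-76, PLC-gamma 1 and the zeta chain that are known from other lineages, 7 were tested, and Clnk had at most 1 count in any library. Hcst (DAP10, the partner of NKG2D) averaged 234 ± 45.8 CPM in CD45RBhi, 203 ± 36.8 in CD45RBlo and 118 ± 10.4 in naive libraries and rose by 0.99 in CD45RBhi and 0.78 in CD45RBlo cells (adjusted p = 0.000517 and 0.00245). Lat2 (NTAL, the LAT relative of B and mast cells) had 81 to 142 counts in CD45RBhi, 111 to 133 in CD45RBlo and 3 to 12 in naive libraries, and rose by 3.77 in CD45RBhi and 4.06 in CD45RBlo cells (adjusted p = 2.18e-06 and 1.05e-06). Blnk, the SLP-76 relative of B cells, had 0 to 14 counts in CD45RBhi, 0 to 3 in CD45RBlo and 36 to 72 in naive libraries and fell, with fitted log2 fold changes of -2.66 in CD45RBhi and -4.59 in CD45RBlo cells (adjusted p = 0.00761 and 0.000565), while the B cell marker sum was also lower in memory libraries.

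Syk, the ZAP-70 relative of B and myeloid cells, averaged 6.68 ± 2.54 CPM in CD45RBhi, 8.83 ± 2.98 in CD45RBlo and 4.28 ± 1.60 in naive libraries. It rose by 1.04 in CD45RBlo cells (adjusted p = 0.0358) and differed by 0.64 in CD45RBhi cells (adjusted p = 0.182). The CD45RBlo call was lost under 6 alternatives, among them scaling by total counts (adjusted p = 0.0553) and leaving out naive replicate 2 or 3 (0.0715 and 0.144) or CD45RBlo replicate 3 or 4 (0.0642 and 0.109). The Syk over Zap70 count ratio was 0.0116 to 0.0327 in CD45RBhi, 0.0181 to 0.0417 in CD45RBlo and 0.00988 to 0.0202 in naive libraries, with overlap between all groups (exact permutation p of 0.114 to 0.371).

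Fcer1g, the ITAM chain related to zeta, Tyrobp (DAP12) and Plcg2 did not pass in either memory group. They averaged 3.21, 2.30 and 12.6 CPM in CD45RBhi, 1.73, 1.58 and 10.3 in CD45RBlo, and 2.00, 2.04 and 9.64 in naive libraries. The Fcer1g over Cd247 count ratio was 0.00580 to 0.0137 in CD45RBhi and 0.00371 to 0.00525 in CD45RBlo libraries without overlap (exact permutation p = 0.0286, the smallest these groups allow, adjusted 0.107), and 0.00374 to 0.00685 in naive libraries.

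Of 14 regulators of the CD8, CD4 and CD3 genes, 6 were higher and 5 lower in each memory group against naive cells (medians 0.01 and 0.08). Zbtb7b (ThPOK), the factor that sets the CD4 lineage in the thymus, had 123 to 183 counts in CD45RBhi, 122 to 199 in CD45RBlo and 0 to 5 in naive libraries, while Cd4 itself stayed at 0 to 9 counts. It rose by 6.24 ± 0.54 in CD45RBhi and 6.36 ± 0.54 in CD45RBlo cells (adjusted p = 1.28e-06 and 9.92e-07). Satb1, a chromatin organiser that acts at the Cd8 and Cd4 loci in thymocytes, averaged 338 ± 19.6 CPM in CD45RBhi, 178 ± 17.3 in CD45RBlo and 895 ± 48.3 in naive libraries and fell (-1.40 in CD45RBhi and -2.33 in CD45RBlo cells). Lef1, a TCF/LEF factor, fell (-1.83 in CD45RBhi and -2.17 in CD45RBlo cells), Tcf7, which encodes TCF1, fell (-0.67 in CD45RBhi and -1.02 in CD45RBlo cells), and Gata3 rose by 1.19 in CD45RBhi and 0.94 in CD45RBlo cells.

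**Figure D5:**
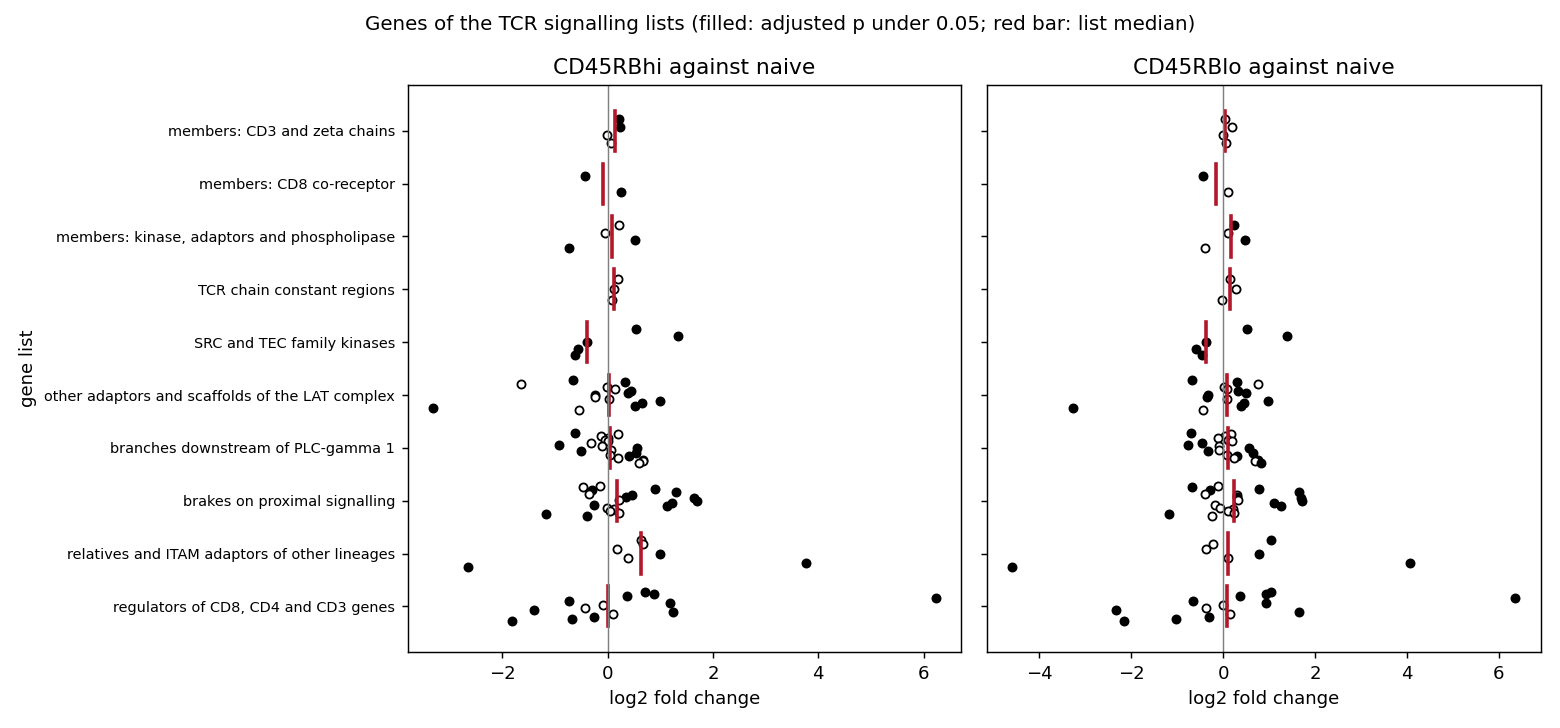
Log2 fold change against naive of each tested gene in the 10 pathway lists, CD45RBhi on the left and CD45RBlo on the right, with filled points at an adjusted p under 0.05 and a red bar at the list median. The constant regions hold no filled point, and the farthest point to the right is Zbtb7b, at 6.24 and 6.36.

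Between CD45RBhi and CD45RBlo cells only Satb1 of the 83 genes passed in the fit of all libraries (0.92 ± 0.08, adjusted p = 0.000758). The paired fit called 4 higher (Satb1, Gata3, Tcf7 and Lef1) and 3 lower (Ptpn11, Tox and Nfatc3), against a background of 5.59% of 12637 genes. Gab2 and Blnk were not tested in that fit. Gab2, Orai2 and Tec, the genes of smallest p in their lists in the unpaired fit, did not pass (adjusted p = 0.263, 0.409 and 0.724). Gab2 had 0 to 7 counts in CD45RBhi and 8 to 24 in CD45RBlo libraries. Ptpn11 had a log2 fold change of -0.33 in the paired fit (adjusted p = 0.0244).

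The gene with the log2 CPM profile most like each called member over the 11 libraries was Ucp2 for Cd3d (Pearson r = 0.943), Dync1i2 for Cd3e (0.966), Gm20735 for Cd8a (0.976) and Lamp1 for Cd8b1 (0.972). For Zap70 it was Tmem43 (0.937), for Lcp2 Tspan31 (0.989) and for Plcg1 Cdk19 (0.972). The 11 points share the 3 groups, and no member was the nearest profile of another.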

How the data were processed

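RNA sequencing of sorted spleen CD8 T cells gave 11 libraries (4 CD45RBhi, 4 CD45RBlo and 3 naive). The authors deposited 1 table of raw, unnormalized counts, with Ensembl genes in rows and libraries in columns. Per the submitters' processing notes, SAMtools, featureCounts and DESeq2 were among the tools, and mm10 and GRCm38 are the builds named. Aligner, annotation and strandedness: not given in the sources used here. A gene's reads on the opposite strand may thus be counted with it.

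The low-count filter was filterByExpr of edgeR at a minimum count of 10. The 13735 genes it left held at least 99.896% of the counts of each library. Counts were TMM scaled and fitted in all 11 libraries without covariates. Differences were tested two-sided by the quasi-likelihood method of edgeR, with Benjamini-Hochberg adjustment over all genes tested and a threshold of 0.05 (coefficient of variation 18.7%). Log2 fold changes are given with SE, levels with SD. A count of 0 allows up to 3 counts, 0.130 to 0.170 CPM in a library, and such limits cover counting error only. Correlations used log2 CPM with prior count 2. No replicate libraries were identical (chi-square per degree of freedom 9.43 to 84.7).

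Replicate numbers recur in all groups. After group means were subtracted, memory libraries of one number and different CD45RB correlated across genes at 0.191 to 0.452, and those of different numbers at -0.331 to 0.0284, so memory libraries were also fitted as pairs, with the number as a block (12637 genes, coefficient of variation 9.88%). This pairing comes from the data, not the labels. Memory and naive libraries of one number correlated at -0.101 to 0.0565 and were not paired.

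Count ratios of partner genes were compared by exact permutation of libraries, without pairing. With groups this small, an adjusted p under 0.05 would need most of the ratio tests at their smallest possible p. The 10 genes, the pathway and marker lists and the tests were chosen with earlier results of these data known. The text names all 10 genes, up to 4 called members of each other list by p (or the one of smallest p), all constant-region and relative genes, and the nearest profile by correlation. Of the genes this rule takes, 1 is not reported here. Lists are described by counts and medians without a set test. Alternatives were DESeq2 size factors, total counts only, no low-count filter, DESeq2's Wald test, only the 2 groups compared, replicate blocks, 0.5 added to counts in ratios, and leaving out each library. In the paired fit each replicate number was left out as a pair. Positions and exon lengths came from GENCODE M21 on GRCm38, promoters from RefSeq on GRCm38.p6. Tools were R 4.3.3, edgeR 4.0.16, limma 3.58.1, DESeq2 1.42.0, Python 3.11.15 and matplotlib 3.10.9. The scripts were tested on simulated data.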

Additional observations from a re-analysis of the deposited data

Results flagged for a closer look

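Of 30 sets of 4 libraries checked, 3 held a library far from the others of its group, where chance gives about 1 in 20. Cd3g was at 906.2 CPM in CD45RBlo replicate 2, against 724.2 to 741.7 CPM in the other 3 CD45RBlo libraries. The Cd3g over Cd3d count ratio was 1.352 in the same library, against 1.231 to 1.245 in the others. The Fcer1g over Cd247 count ratio was 0.01367 in CD45RBhi replicate 3, against 0.005804 to 0.00641 in the other CD45RBhi libraries.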

How the results depend on the processing

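Cd8a and Lcp2 in both memory groups, and Plcg1 in CD45RBhi cells, kept their direction against naive and an adjusted p under 0.05 in every setting run. Scaling by total counts only left 3 members called in CD45RBhi against naive cells. It also turned the sign of uncalled log2 fold changes, to -0.0897, -0.0200 and -0.0528 for Cd247, Trbc1 and Trbc2 in CD45RBhi against naive, to -0.1018, -0.1343, -0.0793, -0.0256, -0.0210 and -0.0369 for Cd3d, Cd3g, Cd247, Cd8b1, Lat and Plcg2 in CD45RBlo against naive, and to -0.0105 and -0.0036 for Cd247 and Cd8a between memory groups. DESeq2 size factors in edgeR gave -0.0025 for Cd3g in CD45RBlo against naive, and -0.0062 and -3e-04 for Cd247 and Cd8a between memory groups. The DESeq2 Wald test gave -0.0067 and -9e-04 for the same pair, and called 146 of all genes and 3 other pathway genes between memory groups. Fitting only the 2 groups compared gave -0.0089 for Cd3g in CD45RBlo against naive cells and 4 genes between memory groups, against 17. The replicate block over all 11 libraries gave 0.0404 for Trbc2 and -0.0623 for Plcg2 in CD45RBlo against naive. On the 8 memory libraries the replicate block called 1 member, 7 other pathway genes and 707 of all genes. It changed no other call among the 10 members. The block over all 11 libraries also joined naive and memory libraries by number, which the correlations did not show as pairs. That block did not call Plcg1 between memory groups (adjusted p = 0.444) and lost Cd3d in CD45RBhi (adjusted p = 0.0539) and Zap70 in CD45RBlo cells (0.0687). Leaving out 1 library without the block, or 1 pair of memory libraries with it, gave 0 to 2 members, 1 to 7 pathway genes and 6 to 667 of all genes between memory groups. That range joins the unpaired and the paired fit, which called 17 and 707 genes with all their libraries. With 1 library or 1 pair left out, uncalled differences changed sign over these ranges. Between memory groups they were -0.0362 to 0.0596 for Cd3e, -0.0755 to 0.0687 for Cd3g, -0.0462 to 0.0647 for Cd247, -0.0359 to 0.0482 for Cd8a, -0.0821 to 0.0485 for Zap70, -0.0686 to 0.2051 for Trac, -0.2691 to 0.0396 for Trbc1 and -0.0791 to 0.0394 for the Cd247 over Cd3e ratio. In CD45RBhi against naive cells they were -0.0757 to 0.0272 for Cd3g, -0.1144 to 0.0397 for Lat and -0.0432 to 0.3014 for Tyrobp. In CD45RBlo against naive cells they were -0.0136 to 0.0533 for Cd3d, -0.0821 to 0.0405 for Cd3g, -0.0073 to 0.2469 for Trac, -0.1015 to 0.0737 for Trbc2, -0.4306 to 0.0812 for Fcer1g, -0.1202 to 0.1842 for Plcg2 and -0.4317 to 0.004519 for the Fcer1g over Cd247 ratio. The cause was not tested. Depth does not limit the 10 members, whereas Syk, Fcer1g, Tyrobp, Blnk and Lat2 rest on few counts, and 3 naive libraries set the spread of that group.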

Other observations

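Genes within 100 kb of the CD3 and CD8 loci were read beside the members, and those named here were chosen after their values were seen. Next to the CD8 genes, Smyd1, a methyltransferase known from heart and muscle, lies 0.555 kb from Cd8b1. It averaged 12 ± 0.192 CPM in CD45RBhi, 11.2 ± 1.11 in CD45RBlo and 1.55 ± 0.140 in naive libraries (SD). It was higher by 2.95 log2 units in CD45RBhi and 2.85 in CD45RBlo cells against naive cells (edgeR, adjusted p = 1.57e-08 and 1.96e-08). Krcc1, on the same side, was lower by a log2 fold change of -0.28 in CD45RBhi and -0.27 in CD45RBlo cells (adjusted p = 0.0177 and 0.0229). Rmnd5a, on the Cd8a side, did not pass (-0.57 in CD45RBhi and -0.44 in CD45RBlo cells, adjusted p = 0.175 and 0.292).

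Next to the CD3 genes, Mpzl3 averaged 35.9 ± 3.01 CPM in CD45RBhi, 30.7 ± 2.21 in CD45RBlo and 15.4 ± 1.86 in naive libraries and was higher by 1.23 log2 units in CD45RBhi and 1.00 in CD45RBlo cells (adjusted p = 3.89e-06 and 2.23e-05). Jaml, an adhesion molecule, averaged 82.6 ± 7.37 CPM in CD45RBhi, 61.0 ± 6.64 in CD45RBlo and 89.4 ± 2.75 in naive libraries. It was lower in CD45RBlo cells (-0.55, adjusted p = 0.000836) and differed by -0.11 in CD45RBhi cells (adjusted p = 0.408). Mpzl2 had 0 counts in all 11 libraries, and Kmt2a, Atp5l and Ube4a did not pass in either memory group.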
